A study of Mus musculus with 40 samples.

Results

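The genes described are 10 matrix metalloproteinases measured beside Mmp8 in sorted cells of mouse colon tumors, healthy colon and blood: Mmp2, Mmp3, Mmp7, Mmp9, Mmp10, Mmp12, Mmp13, Mmp14, Mmp19 and Mmp25. They were chosen by symbol, and no measured value entered the rule. All 10 symbols were found once each among the 45706 genes of the deposited tables. A list of 13 other metalloproteinases is described after the members.

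The study sorted epithelial cells, stromal cells, monocytes and neutrophils and sequenced 40 libraries in 10 groups of 4. Tumor-bearing mice carried the Cdx2CreERT2 transgene, a tamoxifen-inducible Cre recombinase driven by a promoter of the intestinal epithelium, and floxed Apc on both alleles (Apc fl/fl). Their strain labels begin with C57Bl6/Sv and go on with a number that runs upward from 129 over the samples, so the background was read here as C57Bl6/Sv129 with that doubt. Cre was activated with a single injection of Tamoxifen at 25 mg/kg at an age of 8 to 10 weeks, so that Apc was lost in colon epithelium and adenomas formed. Healthy mice were labelled C57Bl6, with no transgene and no agent, and their age was not given in the labels. Strain, transgene, Tamoxifen and tumor therefore changed together between tumor-bearing and healthy mice and cannot be told apart. From tumors came 4 groups, epithelial cells (gated as CD45- EpCAM+), stromal cells (CD45- EpCAM-), monocytes (CD11b+ MHCII- Ly6C-high Ly6G-) and neutrophils (CD11b+ MHCII- Ly6C-low Ly6G+). Blood gave monocytes and neutrophils of tumor-bearing mice and the same cell types of healthy mice, and healthy colon gave epithelial and stromal cells. Library titles name the animals, and 1 library of blood neutrophils of tumor-bearing mice and 3 libraries of healthy blood monocytes pool a pair of animals each. Libraries of a group are numbered 1 to 4 below.

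Matrix metalloproteinases are zinc-dependent enzymes that cut collagens, other matrix proteins, growth factors and adhesion molecules outside the cell. Most are secreted as inactive proenzymes and are switched on by removal of a propeptide, some by furin inside the cell and others by plasmin or by another metalloproteinase. Tissue inhibitors of metalloproteinases (the Timp genes) and the membrane protein Reck hold them in check. The gelatinases Mmp2 and Mmp9 cut denatured collagen and basement membrane, the stromelysins Mmp3 and Mmp10 cut proteoglycans and other proenzymes, and the matrilysin Mmp7 is known from secretory epithelium and from intestinal adenomas. Mmp12 is the macrophage metalloelastase, Mmp13 is a collagenase, Mmp14 (MT1-MMP) is a membrane-spanning enzyme that activates pro-Mmp2, Mmp25 (MT6-MMP or leukolysin) is held in the neutrophil membrane by a lipid anchor, and Mmp19 is a secreted enzyme of endothelium and myeloid cells. Transcript levels, which were measured here, say nothing of how much proenzyme is stored or active.

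Of the 10 genes, 5 lie in 1 cluster on chromosome 9 of mm10, between positions 7272514 and 7699585, a span of 427.1 kb that holds Mmp13, Mmp12, Mmp3, Mmp10 and Mmp7 in that order, and the other 5 lie on other chromosomes. RefSeq promoter windows of GRCm38.p6, from 250 bases before to 50 bases after a transcript start, were found for 7 of the 10, in 9 windows. Mmp2, Mmp9 and Mmp19 had no entry. The windows were searched on both strands for TGANTCA, the motif of AP-1 factors, and for TATAAA, the TATA box, and the matches of these motifs did not overlap. All 5 genes of the cluster held both motifs in 1 window, and the windows of Mmp14 and Mmp25 held neither. Mmp7 and Mmp12 each had another window, which held neither motif. Among 32851 windows of the same length, TGANTCA was found in 7.81% and TATAAA in 13.6%. The windows of the 3 cluster genes with the highest levels in tumors and of Mmp14 are shown on the gene's strand, 5′ to 3′, with both motifs in capitals, because they set the shared layout of the cluster beside a member outside it. A match is a run of letters and was not tested as a binding site.
Mmp7, chr9:7691840-7692139: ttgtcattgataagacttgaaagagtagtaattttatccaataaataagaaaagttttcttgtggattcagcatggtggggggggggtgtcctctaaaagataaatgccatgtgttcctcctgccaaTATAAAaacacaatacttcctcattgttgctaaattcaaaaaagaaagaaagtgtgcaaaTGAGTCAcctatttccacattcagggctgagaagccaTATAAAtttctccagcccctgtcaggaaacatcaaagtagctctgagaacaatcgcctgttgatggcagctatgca
Mmp12, chr9:7347124-7347423: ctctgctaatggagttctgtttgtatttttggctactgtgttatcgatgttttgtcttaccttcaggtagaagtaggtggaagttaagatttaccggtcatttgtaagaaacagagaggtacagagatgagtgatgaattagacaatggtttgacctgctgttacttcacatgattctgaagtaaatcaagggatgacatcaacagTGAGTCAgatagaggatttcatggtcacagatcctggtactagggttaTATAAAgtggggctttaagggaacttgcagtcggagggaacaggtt
Mmp13, chr9:7272264-7272563: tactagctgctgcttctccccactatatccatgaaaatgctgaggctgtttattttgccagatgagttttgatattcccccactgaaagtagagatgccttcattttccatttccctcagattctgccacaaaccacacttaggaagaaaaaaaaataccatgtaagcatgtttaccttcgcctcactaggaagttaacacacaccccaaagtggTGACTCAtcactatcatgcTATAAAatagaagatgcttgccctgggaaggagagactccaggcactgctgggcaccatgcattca
Mmp14, chr14:54431348-54431647: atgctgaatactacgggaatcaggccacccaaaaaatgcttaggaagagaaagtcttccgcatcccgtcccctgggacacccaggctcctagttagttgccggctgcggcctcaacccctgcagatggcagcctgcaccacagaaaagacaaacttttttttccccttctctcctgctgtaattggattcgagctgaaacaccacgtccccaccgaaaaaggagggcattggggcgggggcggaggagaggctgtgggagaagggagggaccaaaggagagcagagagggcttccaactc

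Counts on genes totaled 10717873 to 38002939 per library (median 16338416), and mitochondrial genes took 5.34% to 83.9% of them. The sorted labels were checked against markers fixed with the gene lists, summed as RPKM (reads scaled to transcript length and to the size of the library, a level per length). Epithelial cells, neutrophils and monocytes held their own markers. Group means were at least 1 RPKM for all 10 epithelial, all 6 neutrophil and all 5 monocyte markers in the cell type of each list. That limit did not set the types apart. All 10 epithelial markers also reached it in tumor stroma and tumor neutrophils, all 6 neutrophil markers in tumor stroma, and 5 of the 6 in blood monocytes. Tumor stromal libraries and healthy epithelial library 4 stood apart. That library had the highest mitochondrial share of its group, 83.9% against 48.6% to 67.4%, and epithelial markers at 37.0% of the tumor epithelial mean against 112.6% to 177.9%. In tumor stroma the 6 fibroblast markers summed to 5.97 to 24.0 RPKM, against 354.7 to 2010 RPKM in healthy stroma, and the 6 endothelial markers to 3.37 to 103.4 RPKM against 22.8 to 99.4 RPKM. The 5 smooth muscle markers summed to 2.78 to 6.14 RPKM in tumor stroma, 19.4 to 101.8 RPKM in healthy stroma and 2.12 to 6.13 RPKM in tumor neutrophils. The 3 enteric glia markers summed to 0.288 to 0.882 RPKM in tumor stroma and 1.78 to 6.76 RPKM in healthy stroma. The 10 epithelial markers stood in tumor stromal libraries 1 to 4 at 97.5%, 56.2%, 21.3% and 12.7% of their mean sum in tumor epithelial cells, and in tumor neutrophil libraries 1 to 4 at 72.1%, 16.7%, 15.4% and 5.25%. The 6 neutrophil markers summed to 40.9, 8.46, 1508 and 511 RPKM in tumor stromal libraries 1 to 4. In a sorted population, fewer cells of a type and less RNA per cell cannot be told apart.

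The leading metalloproteinase differed between the sorted cell types. The highest of the 10 was Mmp7 in all 4 tumor epithelial libraries, Mmp19 in all 4 tumor monocyte libraries and all 8 blood monocyte libraries, Mmp9 in all 8 blood neutrophil libraries and 3 of 4 tumor neutrophil libraries, and Mmp2 in all 4 healthy stromal libraries. Tumor stromal libraries were led by Mmp7 in 3 of 4 and by Mmp14 in library 4. The 10 levels summed to 27.4 to 57.1 RPKM in tumor epithelial cells and to 0.393 to 2.96 RPKM in healthy epithelium. In stroma, the sums overlapped between tumor (14.1 to 44.0 RPKM) and healthy colon (31.7 to 74.1 RPKM). Blood monocytes held 1.66 to 5.90 RPKM in all, and tumor monocytes 31.9 to 68.6 RPKM.

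**Figure D1:**
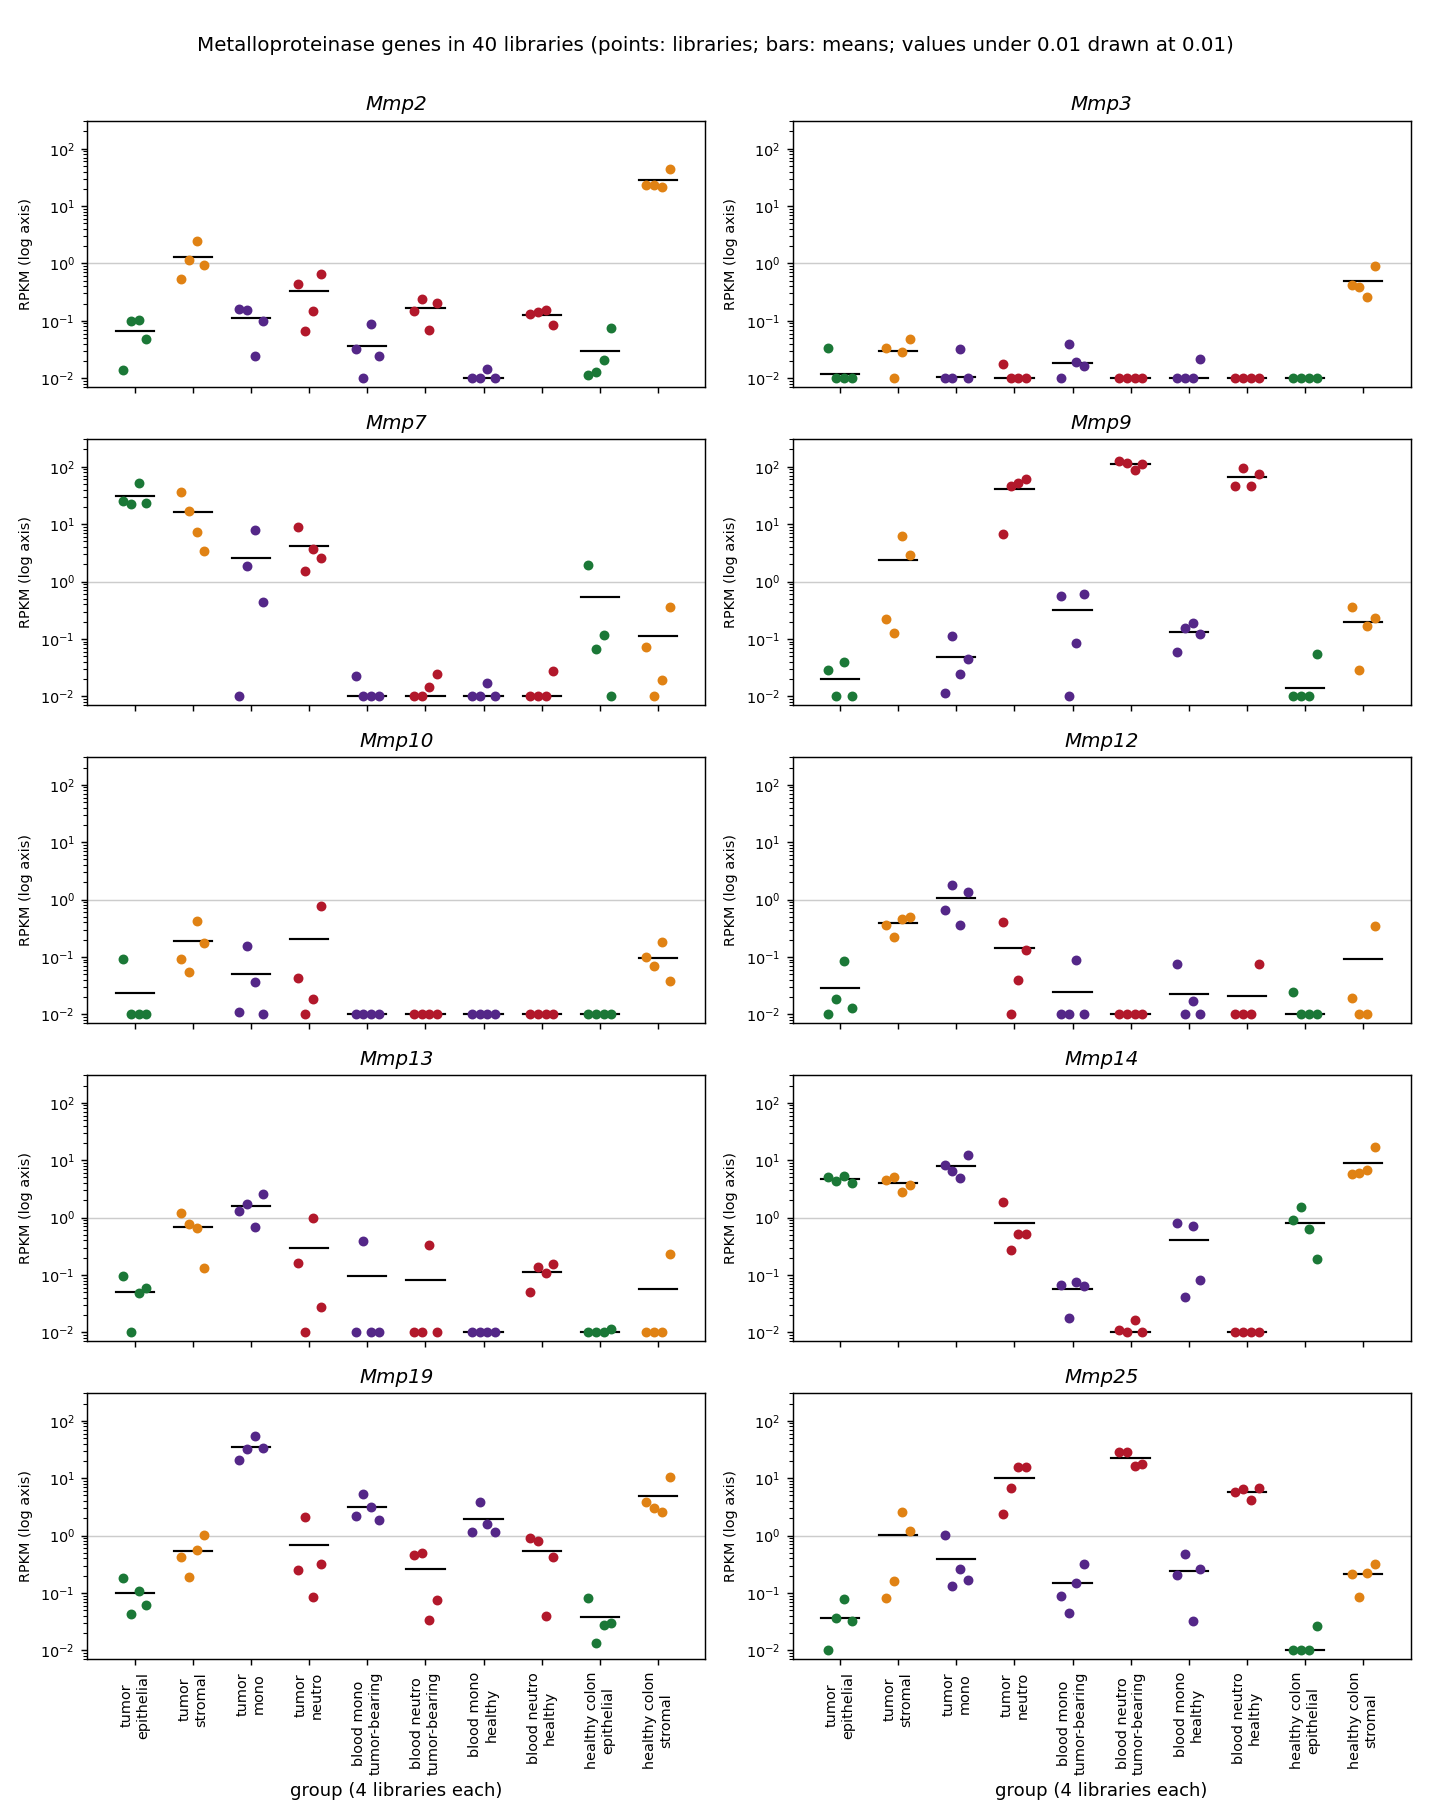
RPKM on a log axis for each of the 10 metalloproteinases (a panel each) in the 4 libraries of each of the 10 groups, with points for libraries, bars for group means, and values under 0.01 drawn at 0.01. Mmp9 and Mmp25 stand highest in neutrophils of blood and tumor, Mmp19 in tumor monocytes at 20.5 to 54.3 RPKM, Mmp7 in tumor epithelial cells at 22.8 to 51.5 RPKM, and Mmp2 in healthy stroma at 21.5 to 44.3 RPKM.

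Set side by side as shares of the summed mean RPKM over the 4 tumor cell types, 94.5% of Mmp9 and 87.5% of Mmp25 stood in neutrophils, and 96.3% of Mmp19, 65.2% of Mmp12 and 60.1% of Mmp13 in monocytes. Mmp7 stood at 57.4% in epithelial and 30.0% in stromal cells. Without the 3 stromal and neutrophil libraries whose epithelial marker level was above 40% of that in tumor epithelial cells, the epithelial share of Mmp7 was 74.7%. Mmp14 was spread, with 45.5% in monocytes, 26.9% in epithelial and 23.1% in stromal cells. Mmp2 stood at 72.0% in stromal cells and 18.2% in neutrophils. In healthy colon, where epithelial and stromal cells were measured, stroma held at least 91.7% of the summed mean of 9 genes, and the epithelium held 82.4% of that of Mmp7. Single libraries set the values of low genes. The share of Mmp13 in healthy stroma was 0.0% without stromal library 4, that of Mmp7 in healthy epithelium was 34.9% without epithelial library 1, and that of Mmp10 in tumor neutrophils was 44.4%, or 7.41% without neutrophil library 4. On counts scaled by TMM library sizes, healthy stromal shares were also lower, at 68.1% for Mmp9, 82.4% for Mmp25, 86.0% for Mmp14 and 90.5% for Mmp10. These shares weight each cell type equally and take no account of how many cells of each type a tumor holds.

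**Figure D2:**
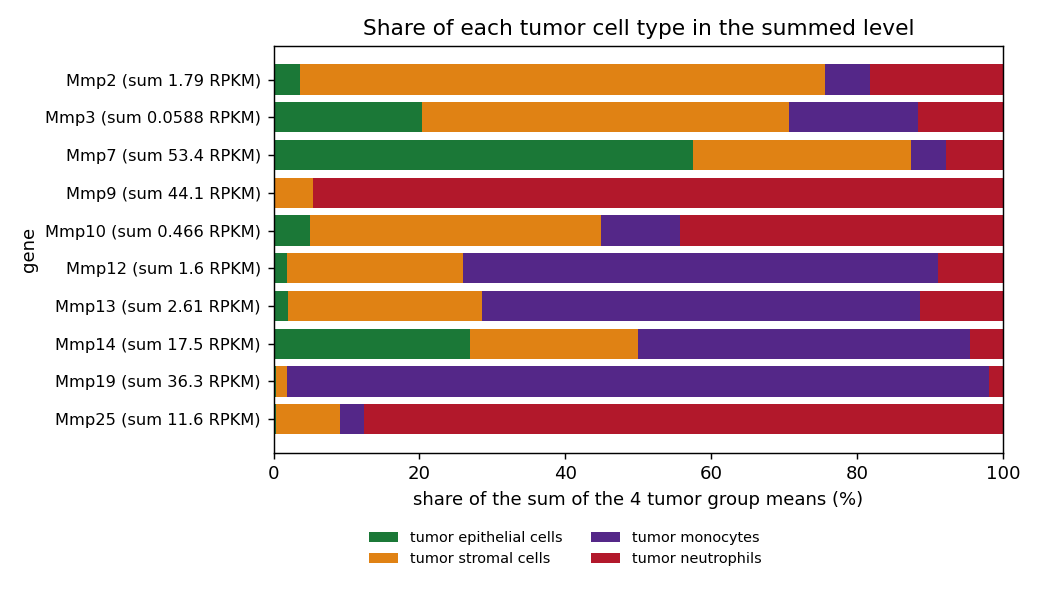
Horizontal bars give, for each gene, the share (percent) of each of the 4 tumor cell types in the sum of their mean RPKM. Neutrophils hold 94.5% of Mmp9 and 87.5% of Mmp25, monocytes 96.3% of Mmp19, and epithelial cells 57.4% of Mmp7.

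For tests, counts were fitted across all genes with edgeR's quasi-likelihood test, and the study's own limits were kept for a call, a Benjamini-Hochberg adjusted p under 0.05 together with a change of more than 1.5 on the log2 scale in either direction. Which tumor cell type holds each transcript was tested in 1 fit of 16 libraries, in which 9 of the 10 genes passed the filter on low counts and Mmp3 did not. Tumor stromal cells were higher than tumor epithelial cells for Mmp2, Mmp9 and Mmp25, 3 of 9 genes, where 4.09% of the 19026 genes tested were called. Tumor monocytes were higher than epithelial cells for 4 genes (Mmp12, Mmp13, Mmp19 and Mmp25) and lower for Mmp7, with 29% of all genes called. Tumor neutrophils were higher than epithelial cells for 4 genes (Mmp2, Mmp9, Mmp19 and Mmp25) and lower for Mmp14, with 21.6% of all genes called. Monocytes against stromal cells gave 1 higher gene, Mmp19, and 2 lower, Mmp2 and Mmp9, with 20.3% called overall. Neutrophils against stromal cells gave Mmp9 and Mmp25 higher and Mmp14 lower, with 16.1% called. Neutrophils against monocytes gave Mmp9 and Mmp25 higher and Mmp14 and Mmp19 lower, with 13.8% called. The tested genes not named in a comparison were not called in it, which held for Mmp10 in all 6. The median log2 fold change of the 9 genes ran from -1.05 (monocytes against stromal cells) to 3.70 (stromal against epithelial cells), and that of all genes from -0.25 to 0.31 over the 6 comparisons. With the animal named in the library title as a block, 11 of these 23 calls passed the test. Lost were all calls of neutrophils against stromal cells (Mmp9, Mmp14 and Mmp25, adjusted p = 0.272, 0.36 and 0.422) and all of Mmp2, Mmp7 and Mmp13. Values for tumor cell types given below for each gene are from the fit without this block, unless stated.

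In healthy colon, 6 of the 10 genes passed the filter, and 4 of them (Mmp2, Mmp3, Mmp14 and Mmp19) were higher in stroma than in epithelium, where 30.9% of 18468 genes were called. Mmp9 and Mmp25 were tested and not called, and Mmp7, Mmp10, Mmp12 and Mmp13 were not tested. From healthy to tumor epithelium, Mmp7 and Mmp14 rose, 2 of the 4 genes tested, with 15.4% of 16085 genes called. Mmp2 and Mmp19 were tested and not called. From healthy to tumor stroma all 10 genes were tested, Mmp7 rose, Mmp2, Mmp3 and Mmp19 fell, and 8.4% of 19081 genes were called. Mmp9, Mmp10, Mmp12, Mmp13, Mmp14 and Mmp25 were not called. The difference between these responses, stromal minus epithelial, was called for 3 of the 10 genes, Mmp3, Mmp14 and Mmp19, with 14.1% of 20901 genes called.

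From blood to tumor, neutrophils rose in Mmp7 and Mmp14, 2 of 6 genes tested (16.3% of 13674 genes called), and monocytes rose in Mmp12, Mmp14 and Mmp19, 3 of 7 tested (11.7% of 15280). Mmp2, Mmp9, Mmp19 and Mmp25 in neutrophils and Mmp2, Mmp9, Mmp13 and Mmp25 in monocytes were tested and not called. The difference of these responses, neutrophil minus monocyte, was called by edgeR for 0 of 8 genes, against 3.95% of 17465 genes, and 1 of the 8, Mmp25, was under an unadjusted p of 0.05. Limma-voom called 0 of them with 2 under an unadjusted p of 0.05, DESeq2 called 0 with 1, and limma on log2(RPKM + 1) and log2(RPKM + 0.1) called 2 (Mmp14 and Mmp19) and 1 (Mmp14). Blood neutrophils of tumor-bearing mice were higher than those of healthy mice for Mmp25, 1 of 5 genes tested (4.01% of 13360 genes called), and not for Mmp2, Mmp9, Mmp13 and Mmp19. For blood monocytes edgeR called 0 of 4 genes (Mmp9, Mmp14, Mmp19 and Mmp25), against 0.209% of 15313 genes, with Mmp14 under an unadjusted p of 0.05. DESeq2 also called 0 with that gene under it, and limma-voom and both RPKM scales called 0 with none under it. In healthy blood, neutrophils were higher than monocytes for 4 of the 5 genes tested (Mmp2, Mmp9, Mmp13 and Mmp25), where 37.1% of 15033 genes were called. Mmp19, the fifth gene tested, was not called (-1.16, SE 0.74, adjusted p = 0.216).

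**Figure D3:**
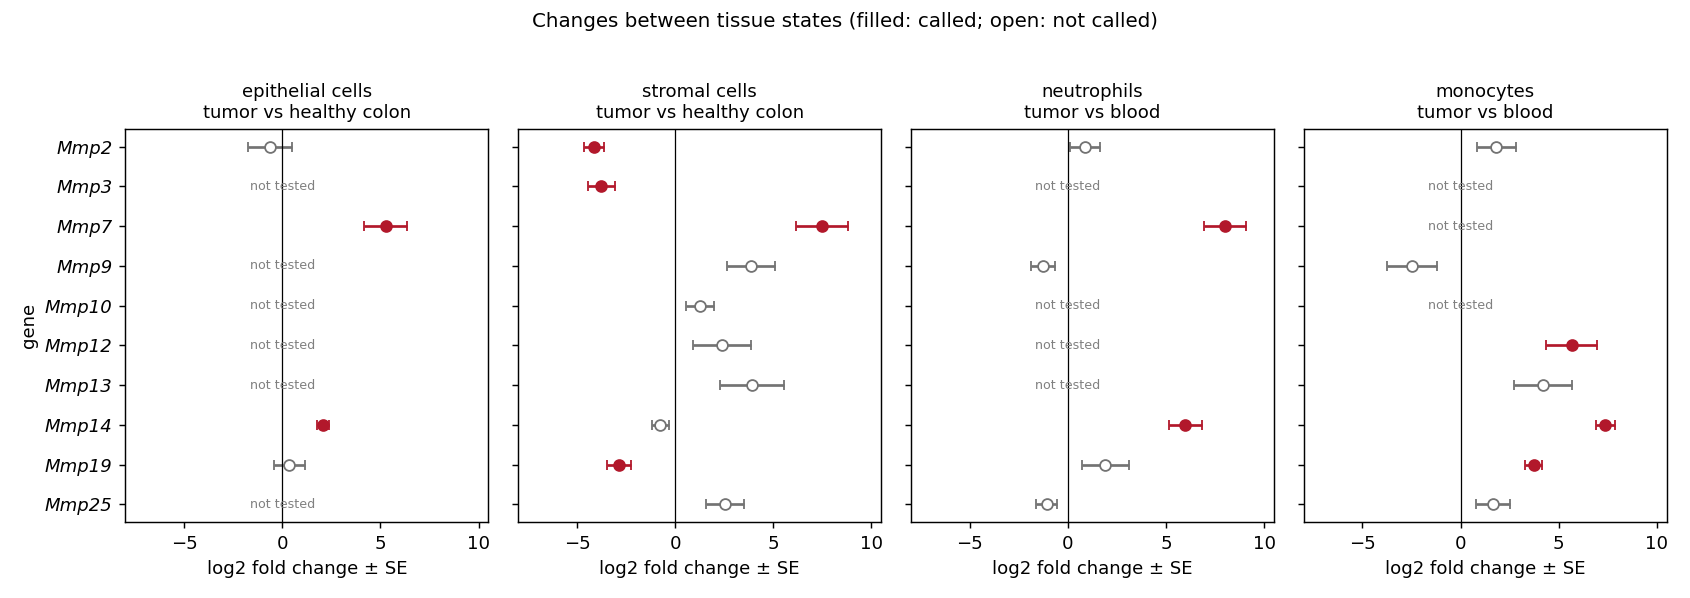
Log2 fold change by edgeR of each gene (rows) from healthy colon to tumor in epithelial and stromal cells and from blood to tumor in neutrophils and monocytes of tumor-bearing mice, with bars for the standard error, filled points for calls and open points for genes that were tested and not called. In stroma Mmp2, Mmp3 and Mmp19 lie left of 0 and Mmp7 right of it, and Mmp14 lies right of 0 in the other 3 panels.

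Mmp2, the gelatinase of mesenchymal cells, was the main metalloproteinase transcript of healthy colon stroma. Its level there was 23.2, 23.4, 21.5 and 44.3 RPKM in libraries 1 to 4, and 0.0115 to 0.0752 RPKM in healthy epithelium. The groups did not overlap, and the log2 fold change was 8.00 (SE 1.15, adjusted p = 0.000688 by edgeR). In tumor stroma the 4 libraries held 0.544, 1.17, 2.51 and 0.936 RPKM. All 4 lay below every healthy stromal library, a fall by 4.12 on the log2 scale (SE 0.52, adjusted p = 0.00483). Beside this, the summed fibroblast markers in these tumor stromal libraries were at 0.681%, 2.73%, 2.14% and 2.09% of their healthy stromal mean, and Mmp2 at 1.94%, 4.15%, 8.94% and 3.33% of its own. The part of the low fibroblast markers in the fall was not tested. Tumor stroma was still higher than tumor epithelium (0.0140 to 0.103 RPKM) by 4.29 (SE 0.87, adjusted p = 0.0112), a call lost without tumor epithelial library 4 (adjusted p = 0.0545) and without stromal libraries 3 and 4 (adjusted p = 0.227). Tumor monocytes (mean 0.110 RPKM) lay below tumor stroma by -3.30 on the log2 scale (SE 0.83, adjusted p = 0.0106). In healthy blood Mmp2 was low in neutrophils but above monocytes, at 0.0858 to 0.156 RPKM against 0.000758 to 0.0145 RPKM, a log2 fold change of 4.70 (SE 0.68, adjusted p = 0.000376). Tumor neutrophils held 0.443, 0.0669, 0.149 and 0.645 RPKM, which overlapped tumor epithelial cells, and their difference of 3.07 (SE 0.83, adjusted p = 0.0122) was lost without neutrophil library 4 (adjusted p = 0.0585). The genes whose log2(RPKM + 1) followed Mmp2 most closely over the 40 libraries were Col1a2 (r = 0.993), Col5a2 (r = 0.992) and Col6a2 (r = 0.992), 3 collagen genes, and the points share libraries and cell types.

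Mmp9, the gelatinase of neutrophil tertiary granules, was highest in the neutrophils of both blood and tumor, the tissues from which neutrophils were sorted. Blood neutrophils of tumor-bearing mice held 127.4, 116.1, 89.2 and 112.9 RPKM, those of healthy mice 46.4, 93.4, 46.4 and 75.7 RPKM, and tumor neutrophils 6.81, 45.5, 52.8 and 61.6 RPKM. Every tumor neutrophil library lay below every blood neutrophil library of tumor-bearing mice, yet the difference of -1.26 (SE 0.60) was not called (adjusted p = 0.178). The 6 neutrophil markers summed to 1904 to 12240 RPKM in these tumor libraries and to 15240 to 19950 RPKM in these blood libraries. Tumor neutrophil library 1, the lowest in Mmp9, carried epithelial markers at 72.1% of their tumor epithelial mean. The part of these markers in the lower Mmp9 was not tested. Tumor-bearing exceeded healthy blood neutrophils by 0.82 (SE 0.21, adjusted p = 0.0444), which is under the fold limit, and libraries of the groups overlapped. Healthy blood monocytes held 0.0603 to 0.192 RPKM, and healthy blood neutrophils stood above them by 9.69 (SE 0.48, adjusted p = 2.04e-06). In tumor stroma the level was uneven, at 0.221, 0.125, 6.09 and 2.92 RPKM in libraries 1 to 4. As percentages of the tumor neutrophil mean these were 0.529%, 0.301%, 14.6% and 7.0%, beside summed neutrophil markers at 0.519%, 0.107%, 19.1% and 6.48%. The call against tumor epithelium, 6.79 (SE 1.29, adjusted p = 0.00825), was lost without stromal libraries 3 and 4, which were left out after their neutrophil markers were seen (3.14, adjusted p = 0.491). The lower level of tumor monocytes than of stroma, -5.28 (SE 1.18, adjusted p = 0.00562), became -1.64 (adjusted p = 0.207) without the same libraries. In healthy stroma Mmp9 was 0.0289 to 0.357 RPKM, and the change to tumor stroma, 3.85 (SE 1.22, adjusted p = 0.0851), was not called. It was called by DESeq2 (adjusted p = 0.00233) and without stromal libraries 1 and 2, which are high in epithelial markers (4.8, adjusted p = 0.0142), and was 3.79 in 1 model of all 40 libraries (adjusted p = 0.0244). Leaving out libraries 1 and 2 keeps tumor stromal libraries 3 and 4, whose neutrophil markers summed to 1508 and 511 RPKM. That call therefore cannot tell stromal Mmp9 from Mmp9 of neutrophils. The genes most alike over the 40 libraries were Dhrs9 (r = 0.988), Klra17 (r = 0.986) and Mrgpra2a (r = 0.986).

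Mmp25, the glycolipid-anchored enzyme of neutrophils, was, like Mmp9, highest in neutrophils, and it differed between the blood of tumor-bearing and healthy mice. Blood neutrophils of tumor-bearing mice held 29.0, 28.6, 16.2 and 17.8 RPKM and those of healthy mice 5.70, 6.48, 4.21 and 6.71 RPKM. The groups did not overlap, and the log2 fold change was 2.01 (SE 0.21, adjusted p = 0.00174). In 1 model of all 40 libraries the size was 2.00 but the call was lost (adjusted p = 0.322). Neutrophil markers summed higher in the same libraries, at 15240 to 19950 RPKM against 3687 to 8468 RPKM, and so did the 6 immature neutrophil markers, at 164.4 to 507.6 RPKM against 3.96 to 15.3 RPKM, and their part in the result was not tested. Mmp8, the neutrophil collagenase, rose with it by 2.78 (SE 0.40, adjusted p = 0.00424). Tumor neutrophils held 2.39, 6.81, 15.8 and 15.8 RPKM of Mmp25, all below the lowest blood library of tumor-bearing mice (16.2 RPKM), with a log2 difference of -1.08 (SE 0.54, adjusted p = 0.19). Summed neutrophil markers were lower in these tumor libraries too, at 1904 to 12240 RPKM, and their part was not tested. Against tumor epithelial cells (0.00219 to 0.0775 RPKM) the difference of tumor neutrophils in Mmp25 was 9.08 (SE 1.38, adjusted p = 0.000126), and against tumor monocytes 5.41 (SE 1.16, adjusted p = 0.00669). With the animal of the title as a block, the difference against monocytes was 5.98 and was not called (adjusted p = 0.0733). Tumor stroma held 0.0824, 0.163, 2.63 and 1.22 RPKM, or 0.809%, 1.60%, 25.8% and 11.9% of the tumor neutrophil mean, beside summed neutrophil markers at 0.519%, 0.107%, 19.1% and 6.48% of their tumor neutrophil mean. Its call over tumor epithelium was 4.72 (SE 1.15, adjusted p = 0.0285) and was lost without stromal libraries 3 and 4 together (adjusted p = 1) and without any of tumor epithelial libraries 1, 2, 3 and 4 or of stromal libraries 3 and 4 left out singly (adjusted p = 0.066 to 0.104). The call of tumor monocytes over epithelial cells, 3.67 (SE 1.11, adjusted p = 0.0191), was lost without tumor epithelial library 4 (adjusted p = 0.0518) or without monocyte library 1 (adjusted p = 0.0852), whose 1.01 RPKM was the highest of the 4. A pair of annotated processed pseudogenes overlaps Mmp25, and the library kit does not mark strand, so reads of overlapping genes cannot be told apart. Over the 40 libraries Cxcr1 (r = 0.977), BC100530 (r = 0.974) and 2010005H15Rik (r = 0.973) were most alike.

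Mmp14, the membrane-type enzyme that activates pro-Mmp2, was found in epithelium, stroma and monocytes of the tissue and was low in blood. Healthy stroma held 5.80, 6.01, 6.73 and 17.1 RPKM, and healthy epithelium 0.890, 1.54, 0.620 and 0.188 RPKM. Stroma was higher by 2.65 on the log2 scale (SE 0.45, adjusted p = 0.00149), with no overlap. Tumor epithelium held 5.19, 4.41, 5.22 and 4.03 RPKM, every library above healthy epithelium, a rise of 2.07 (SE 0.30, adjusted p = 0.000801). In tumor stroma the level was 4.54, 5.04, 2.84 and 3.75 RPKM, and the change from healthy stroma, -0.76 (SE 0.44, adjusted p = 0.32), did not pass the test although every tumor library lay below every healthy one. The stromal response was lower than the epithelial by -2.85 (SE 0.56, adjusted p = 0.00302). Epithelial markers stood at 97.5%, 56.2%, 21.3% and 12.7% of their tumor epithelial mean in tumor stromal libraries 1 to 4. Their part in the tumor stromal level of Mmp14 and in the difference of responses was not tested. In the blood of tumor-bearing mice, monocytes held 0.0175 to 0.0754 RPKM and neutrophils 0.00299 to 0.0163 RPKM. Tumor monocytes held 8.23, 6.48, 4.99 and 12.2 RPKM, a rise over blood monocytes of 7.38 (SE 0.49, adjusted p = 9.69e-06), and tumor neutrophils 1.86, 0.269, 0.526 and 0.526 RPKM, a rise of 5.98 (SE 0.84, adjusted p = 0.00114). Tumor neutrophil library 1, the highest, was also the neutrophil library with the most epithelial markers. These stood at 72.1%, 16.7%, 15.4% and 5.25% of their tumor epithelial mean in tumor neutrophil libraries 1 to 4. The 5 monocyte markers stood there at 5.75%, 3.45%, 10.1% and 11.9% of their tumor monocyte mean. Mmp14 stood at 23.4%, 3.38%, 6.60% and 6.60% of its own tumor monocyte mean. The part of these markers in the rise in neutrophils was not tested. Neutrophils were the lowest of the 4 tumor cell types in Mmp14, at -1.99 against epithelial cells (SE 0.40, adjusted p = 0.00149), -1.72 against stromal cells (SE 0.40, adjusted p = 0.00658) and -2.91 against monocytes (SE 0.42, adjusted p = 0.000623). With the animal of the title as a block, the difference against stromal cells was -1.11 and was not called (adjusted p = 0.36). Monocytes exceeded stromal cells by 1.19 (SE 0.39, adjusted p = 0.0385), under the fold limit, and by 1.56 (adjusted p = 0.0154) without libraries high in epithelial markers. Healthy blood monocytes were uneven, at 0.795, 0.0420, 0.707 and 0.0821 RPKM. Pvr (r = 0.936), Timp1 (r = 0.913) and Gm5511 (r = 0.905) were most alike over the 40 libraries.

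Mmp7, the matrilysin, marked the tumor epithelium. Tumor epithelial libraries held 25.0, 22.8, 51.5 and 23.6 RPKM, and healthy epithelial libraries 1.95, 0.0660, 0.117 and 0.000211 RPKM. No library overlapped, and the log2 fold change was 5.26 (SE 1.09, adjusted p = 0.00598). In stroma it went from 0.0734, 0.000288, 0.0195 and 0.363 RPKM in healthy colon to 36.5, 16.9, 7.16 and 3.44 RPKM in tumors, 7.47 on the log2 scale (SE 1.33, adjusted p = 0.0126). As percentages of the tumor epithelial mean, the 4 tumor stromal libraries stood at 119%, 55.1%, 23.3% and 11.2%, beside summed epithelial markers at 97.5%, 56.2%, 21.3% and 12.7%. The stromal level of Mmp7 was thus in the same order, library by library, as that of the epithelial markers, and the part of epithelial RNA in it was not tested. The difference between stroma and epithelium in tumors, -0.92 (SE 1.02, adjusted p = 0.978), and that between their responses, 2.22 (SE 1.65, adjusted p = 0.421), did not pass the test.

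In tumor neutrophils Mmp7 was 9.0, 1.5, 3.64 and 2.55 RPKM, at 29.3%, 4.89%, 11.9% and 8.31% of the epithelial mean, where the epithelial markers stood at 72.1%, 16.7%, 15.4% and 5.25%. Blood neutrophils of tumor-bearing mice, with 1 animal name shared between these groups, held 3 counts in all against 923 in tumor neutrophils, a ratio of 292 per unit of effective library size with a 95% counting interval of 99.7 to 1420, which covers counting error only. The fitted change was 8.01 (SE 1.07, adjusted p = 0.001), and all 4 tumor libraries lay above all 4 blood libraries. Tumor monocytes ran from 0.000662 to 7.92 RPKM, with 0.000662, 1.88, 7.92 and 0.432 RPKM in libraries 1 to 4, and epithelial markers at 0.774%, 14.9%, 5.95% and 4.57%. Library 3 held 25.8% of the epithelial Mmp7 mean beside 5.95% of the epithelial markers, and library 1 held 0 counts. The lower level in monocytes than in epithelial cells, -3.29 (SE 1.11, adjusted p = 0.0316), was lost without tumor epithelial library 1 or 3 or monocyte library 2 or 4 (adjusted p = 0.053 to 0.076). An antisense gene overlaps Mmp7, and the reads of both cannot be told apart. Over the 40 libraries the genes most alike were Pla2g2a (r = 0.973), Dsc3 (r = 0.972) and Sox21 (r = 0.970).

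**Figure D4:**
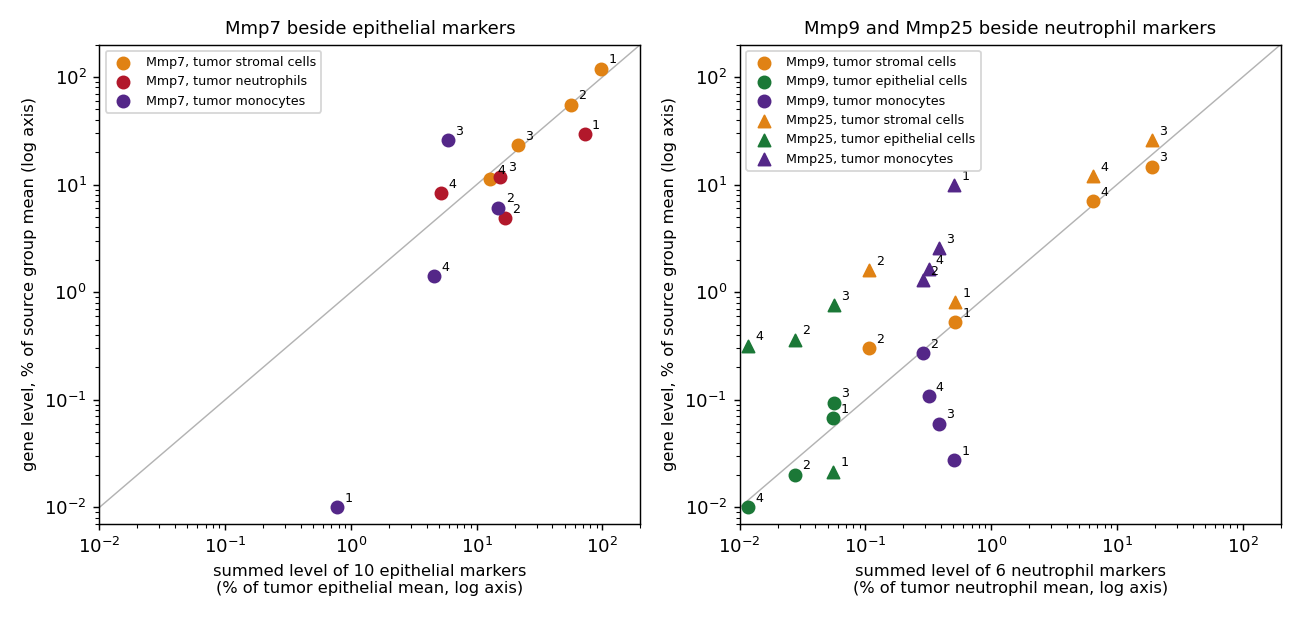
Left, the Mmp7 level as a percentage of the tumor epithelial mean against the summed epithelial markers on the same scale, and right, Mmp9 and Mmp25 against the summed neutrophil markers, both as percentages of the tumor neutrophil means. Points are libraries with their number, all axes are logarithmic, values under 0.01% are drawn at 0.01%, and the diagonal marks equal percentages. Mmp7 in the tumor stromal libraries lies near the diagonal, from 11.2% at 12.7% of the markers to 119% at 97.5%, and tumor monocyte library 3 lies above it at 25.8%.

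Mmp19, a secreted enzyme found in myeloid and endothelial cells, was the highest of the 10 genes in monocytes, where Mmp8, which is not one of them, averaged 43.8 RPKM in blood of tumor-bearing mice, 12.5 RPKM in healthy blood and 20.1 RPKM in tumors. Tumor monocytes held 20.5, 31.9, 54.3 and 33 RPKM, and blood monocytes of tumor-bearing mice 2.24, 5.41, 3.15 and 1.86 RPKM. The groups did not overlap, and the rise was 3.73 (SE 0.44, adjusted p = 0.000329). Healthy blood monocytes held 1.15, 3.88, 1.60 and 1.18 RPKM, which overlapped those of tumor-bearing mice, with a log2 difference of 0.80 (SE 0.50, adjusted p = 0.648). Against tumor epithelial cells (0.0439 to 0.182 RPKM) the monocytes stood 8.66 higher (SE 1.13, adjusted p = 6.5e-05), against tumor stroma 6.29 higher (SE 1.01, adjusted p = 0.000892), and neutrophils stood -4.74 below monocytes (SE 0.94, adjusted p = 0.00431). Monocyte markers themselves were lower in tumor monocytes than in blood monocytes, at 131.8 to 164.9 RPKM against 243.6 to 389.8 RPKM. In tumor neutrophils it stood at 0.253, 2.09, 0.0858 and 0.325 RPKM. The call over epithelial cells, 3.93 (SE 0.93, adjusted p = 0.00503), was lost without neutrophil library 2 (1.51, adjusted p = 0.0755).

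Healthy stroma also held Mmp19. Libraries 1 to 4 held 3.81, 3.01, 2.62 and 10.3 RPKM, against 0.0135 to 0.0821 RPKM in healthy epithelium, a log2 difference of 5.73 (SE 0.82, adjusted p = 0.000654). Tumor stroma held 0.429, 0.188, 0.559 and 1.01 RPKM, all below healthy stroma, a fall by 2.88 on the log2 scale (SE 0.62, adjusted p = 0.0239). That call was lost without tumor stromal library 1, 2 or 3 (adjusted p = 0.0616, 0.0519 and 0.0578) and without libraries high in epithelial markers (adjusted p = 0.0925). As with Mmp2, the summed fibroblast markers of tumor stromal libraries 1 to 4 were at 0.681%, 2.73%, 2.14% and 2.09% of their healthy stromal mean. Their part in the fall of Mmp19 was not tested. The stromal response was lower than the epithelial by -3.29 (SE 1.01, adjusted p = 0.0391), a difference lost without any of 9 of the 16 libraries (healthy epithelial 2 and 3, healthy stromal 1 and 4, tumor epithelial 1 and 3, and tumor stromal 1, 2 and 3, adjusted p = 0.0515 to 0.0973). An antisense gene and Tmem198b overlap Mmp19, so reads cannot be assigned between them. Nrg1 (r = 0.895), Adap2os (r = 0.893) and Mdfic (r = 0.889) were most alike over the 40 libraries.

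Mmp12, the macrophage metalloelastase, and Mmp13, a collagenase, were low transcripts that stood highest in tumor monocytes. Mmp12 was 0.670, 1.82, 0.355 and 1.34 RPKM there and 0.000227 to 0.0897 RPKM in blood monocytes of tumor-bearing mice, a rise of 5.67 (SE 1.30, adjusted p = 0.0138) with no overlap. Mmp13 was 1.28, 1.73, 0.685 and 2.58 RPKM in tumor monocytes, and 0.385 RPKM in 1 library and at most 4.93e-05 RPKM in the other 3 of blood monocytes. Its difference of 4.20 (SE 1.47, adjusted p = 0.0766) missed the threshold, and without blood monocyte library 2 it was called at 11.15 (adjusted p = 0.000786). In this fit both genes were higher in tumor monocytes than in tumor epithelial cells, Mmp12 by 5.51 (SE 1.23, adjusted p = 0.00319) and Mmp13 by 5.09 (SE 1.39, adjusted p = 0.011). Tumor stroma held 0.226 to 0.5 RPKM of Mmp12 and 0.134 to 1.19 RPKM of Mmp13, and neither monocytes nor neutrophils differed from it past the threshold. From healthy to tumor stroma the differences of 2.37 for Mmp12 (SE 1.48, adjusted p = 0.36) and 3.92 for Mmp13 (SE 1.61, adjusted p = 0.172) were not called. Healthy stromal library 4, with 0.346 RPKM of Mmp12 and 0.232 RPKM of Mmp13, was the only 1 of its 4 above 0.02 RPKM for either, and without it both were called (adjusted p = 0.0183 and 0.0144). In healthy blood, monocytes held 0 counts of Mmp13 and neutrophils 96, at least 11.1-fold higher against a floor of 3 counts per library. Mmp1b, on the other strand, overlaps Mmp12, and reads of the genes cannot be told apart. Gpr171 (r = 0.885), Cd83 (r = 0.858) and Arg1 (r = 0.850) were most like Mmp12 over the 40 libraries, and Osgin2 (r = 0.765), C3ar1 (r = 0.758) and Inhba (r = 0.750) most like Mmp13.

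The stromelysins Mmp3 and Mmp10 were scarce in every group. Mmp3 reached 0.417, 0.391, 0.261 and 0.890 RPKM in healthy stroma and was at 0 RPKM and 0 counts in all 4 healthy epithelial libraries, against 256 counts, at least 9.76-fold higher (floor of 3 counts per library). It fell in tumor stroma to 0.0339, 0.00738, 0.0288 and 0.0483 RPKM, by 3.75 on the log2 scale (SE 0.68, adjusted p = 0.0131). That call was lost without the stromal libraries high in epithelial markers (adjusted p = 0.0621), and as with Mmp2 the fibroblast markers of these libraries were low. The stromal response lay below the epithelial by -7.29 (SE 1.80, adjusted p = 0.0165), a fitted value that depends on the 0 counts of healthy epithelium. Elsewhere Mmp3 had no group mean above 0.02 RPKM. Mmp10 had its highest group mean, 0.207 RPKM, in tumor neutrophils, and 83 of its 89 counts there came from library 4 (0.765 RPKM). Tumor stroma held 0.0540 to 0.426 RPKM and healthy stroma 0.0382 to 0.182 RPKM, which overlapped. In healthy colon, Mmp10 was counted 46 times in stroma and 1 time in epithelium, a ratio of 21.0 with a 95% counting interval of 3.59 to 849. No comparison called Mmp10, which passed the filter in 8 of the 16 comparisons, although tumor neutrophils over epithelial cells were called without tumor epithelial library 1 (8.23, adjusted p = 0.0288). Of the 5 cluster genes with both promoter motifs, Mmp7 thus had its highest mean in tumor epithelium, Mmp12 and Mmp13 in tumor monocytes, Mmp3 in healthy stroma and Mmp10 in tumor neutrophils, and they did not all share a leading cell type.

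Genes that act on these enzymes were read from lists of 13 other metalloproteinases, 5 inhibitors (Timp1, Timp2, Timp3, Timp4 and Reck) and 7 activators or partners. In healthy colon all 5 inhibitors were higher in stroma than in epithelium, Timp3 by 5.35 (SE 0.49, adjusted p = 7.28e-05) and Reck by 9.65 (SE 0.79, adjusted p = 4.07e-05). In that comparison 30.9% of all genes tested were called. From healthy to tumor stroma Reck and Timp2 fell, by 3.32 and 3.80 on the log2 scale, beside the fall of the fibroblast markers. In tumor epithelium Timp1 rose by 4.79 (SE 0.78, adjusted p = 0.00148) and Timp3 by 1.83 (SE 0.43, adjusted p = 0.0115). The stromal minus epithelial difference of response was called lower for all 5 inhibitors, with 14.1% of all genes called. The tumor stromal libraries were low in fibroblast markers and carried epithelial markers, and the part of these in the difference was not tested. Tumor monocytes rose over blood monocytes in Timp1 by 7.96 (SE 0.69, adjusted p = 4.3e-05) and Timp3 by 3.98. In that comparison 11.7% of all genes tested were called. Neutrophils rose from blood to tumor in Timp3 by 4.19 (SE 0.88, adjusted p = 0.00864), with 16.3% called. Reck changed there by -3.69 (SE 0.62, adjusted p = 0.00265). For Timp3, tumor monocytes stood at -3.91 against tumor epithelium and -5.79 against tumor stroma. Tumor monocyte and neutrophil libraries carried epithelial markers, whose part in these Timp3 rises was not tested. Timp2 was higher in tumor neutrophils, at 3.60, 5.33, 13.6 and 13.1 RPKM, than in tumor monocytes, at 0.920, 0.481, 0.189 and 1.73 RPKM, by 4.15 (SE 0.62, adjusted p = 0.000731). Reck was also higher in neutrophils, by 4.73 (SE 1.12, adjusted p = 0.0113), and Timp1 was lower, at -4.26 (SE 0.96, adjusted p = 0.00909). Of 4 inhibitors tested between these cell types, 2 were thus higher in neutrophils and 1 lower, with 13.8% of all genes called.

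Lcn2, which encodes the lipocalin that binds Mmp9, rose in tumor against healthy epithelium by 4.95 (SE 1.10, adjusted p = 0.00851), in stroma by 4.91 (SE 0.54, adjusted p = 0.00433), and in blood of tumor-bearing against healthy mice by 3.14 in neutrophils (SE 0.42, adjusted p = 0.00376) and 4.94 in monocytes (SE 0.77, adjusted p = 0.0374). Its mean was 182.9 RPKM in tumor neutrophils and 18.9 RPKM in tumor epithelium, and the tumor stromal libraries, which carry markers of both, held 24.3, 14.3, 49.0 and 22.5 RPKM. The part of these markers in the stromal rise was not tested. In blood monocytes of tumor-bearing mice the 6 immature neutrophil markers summed to 26.8 to 80.3 RPKM. In those of healthy mice they summed to 0.322 to 1.065 RPKM. Their part in the Lcn2 rise of blood monocytes was not tested. Plaur, the urokinase receptor, rose from blood to tumor in neutrophils by 1.88 (SE 0.41, adjusted p = 0.0104) and in monocytes by 2.74 (SE 0.26, adjusted p = 8.45e-05), and Plat, the tissue plasminogen activator, by 7.43 and 6.69. Plat averaged 33.4 RPKM in tumor epithelium and stood at 10.51, 3.45, 1.63 and 2.35 RPKM in tumor neutrophils, highest in library 1, where epithelial markers were highest too, and the part of those markers was not tested. Tumor monocyte libraries 1 to 4 held epithelial markers at 0.774%, 14.9%, 5.95% and 4.57% of their tumor epithelial mean. Their part in the monocyte rise of Plat was not tested either. Of the 13 other metalloproteinases, 2 to 10 passed the filter in a comparison. In healthy colon 4 of 9 tested were higher in stroma (Mmp11, Mmp16, Mmp17 and Mmp23), with 30.9% of all genes called. Tumor monocytes were lower than tumor epithelium in 5 of 8 (Mmp11, Mmp15, Mmp16, Mmp24 and Mmp28), with 29% of all genes called. They were lower than tumor stroma in 3 (Mmp11, Mmp15 and Mmp28), with 20.3% called. Tumor neutrophils were lower than epithelium in Mmp16 and Mmp24 (21.6% called) and higher than monocytes in Mmp15 and Mmp28 (13.8% called). Mmp8 was higher in tumor stroma, monocytes and neutrophils than in tumor epithelium. Tumor stromal libraries 1 to 4 held 0.622%, 0.072%, 42.6% and 13.9% of its tumor neutrophil mean. The summed neutrophil markers stood there at 0.519%, 0.107%, 19.1% and 6.48% of theirs, and their part in the stromal level of Mmp8 was not tested. From blood to tumor, Mmp15 rose in neutrophils by 7.18 (SE 1.21, adjusted p = 0.00278). Epithelial markers stood at 72.1%, 16.7%, 15.4% and 5.25% of their tumor epithelial mean in tumor neutrophil libraries 1 to 4. In blood neutrophils of tumor-bearing mice they summed to 0.656 to 1.555 RPKM. The part of these markers in the Mmp15 rise, and in the higher Mmp15 and Mmp28 of neutrophils than of monocytes, was not tested. In healthy blood, neutrophils were higher than monocytes in Mmp8 and Mmp23 and lower in Mmp28, with 37.1% of all genes called. The stromal minus epithelial difference was called lower for Mmp11 and Mmp16, with 14.1% of all genes called. Mmp11 rose in tumor epithelium by 3.91 (SE 0.79, adjusted p = 0.00507) and Mmp24 by 2.70 (SE 0.85, adjusted p = 0.0439). Mmp16 and Mmp23 fell in tumor stroma by 5.32 and 3.06, beside the fall of the fibroblast markers, whose part was not tested. Mmp8 held 573.7 RPKM on average in blood neutrophils of tumor-bearing mice, 83.1 RPKM in those of healthy mice and 130.4 RPKM in tumor neutrophils, so that its mean exceeded that of Mmp9 in each of these groups.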

How the data were processed

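RNA was prepared from sorted cells with the PicoPure kit, amplified into double-stranded cDNA (NuGEN Ovation), made into TruSeq Nano libraries and sequenced as single reads. The authors mapped reads to mm10 (Bowtie2 is named in the submitters' processing notes) and used HTSstation to count reads for each Ensembl gene, which gave the deposited expected counts, without normalization. They are not whole numbers in 99.6% of nonzero values (tolerance 1e-06), and they were rounded for the tests. The authors also deposited RPKM, which equal the counts divided by 1 constant per library and 1 per gene. The gene constant followed the merged exon length (r = 0.947 over 19801 genes). Neither the annotation release nor the treatment of strand is given in the sources used here.

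Counts were fitted with edgeR 4.0.16 (R 4.3.3, robust quasi-likelihood, TMM, filterByExpr) and adjusted over all genes tested. The tumor cell types shared 1 fit of 16 libraries, each of the other comparisons had a fit of its own 8, and each difference of responses was an interaction over 16. Symbols came from GENCODE for 45143 of the 45706 genes. The fits were tested on simulated data. The alternatives were limma-voom (limma 3.58.1), DESeq2 1.42.0, limma on log2(RPKM + 1) or log2(RPKM + 0.1), RLE factors, no filter, no mitochondrial genes, 1 model of all 40 libraries, no fold limit, blocks, and libraries left out. The 4 libraries of a group came from different animals or pools by their titles. The labels number 2 tumor stromal libraries as replicate 3, and 1 of them is called library 4 here. Replicate pairs differed by more than counting error (chi-square per gene of at least 20.2, median 118). At these depths 1 count is a small step for the abundant genes, whereas genes with a few counts have wide intervals.

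The members, lists, tests and alternatives were chosen with earlier results of these data known. By the rule for named genes, all 10 members were to be named in every comparison. They are given as called, tested and not called, or not tested, and tested genes that were not called are in part given as the remainder. Of the lists of regulators only called genes are named, and Mmp8 is given for its level. Genes called most alike are the 3 with the highest Pearson correlation of log2(RPKM + 1) over the 40 libraries, for members with a group mean of at least 1 RPKM, among genes with a mean of at least 5 RPKM in some group.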

Additional observations from a re-analysis of the deposited data

Results flagged for a closer look

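In 31 groups with a mean of at least 0.5 RPKM, 8 held a library that stood far from the other 3. For normal and independent values, chance alone would flag about 1 in 20 groups. RPKM need not be normal, each flagged library was the highest of its group, and 3 flags came from 1 library. No excess over chance was therefore read from the count. Healthy stromal library 4 was the high library for 3 genes, with 44.27 RPKM of Mmp2, 17.13 RPKM of Mmp14 and 10.3 RPKM of Mmp19, and it also held the highest fibroblast markers of its group (2010 RPKM). Tumor epithelial library 3 held 51.46 RPKM of Mmp7, and healthy epithelial library 1 held 1.95 RPKM of it. Tumor neutrophil library 1 held 1.863 RPKM of Mmp14, beside epithelial markers at 72.1% of their tumor epithelial mean. Tumor neutrophil library 2 held 2.091 RPKM of Mmp19, and healthy blood monocyte library 2 held 3.881 RPKM of it.

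The change from healthy colon to tumor differed between stromal and epithelial cells for 3 genes in the interaction test of edgeR, lower in stroma by -2.85 for Mmp14 (adjusted p = 0.00302), -3.29 for Mmp19 (adjusted p = 0.0391) and -7.29 for Mmp3 (adjusted p = 0.0165). For Mmp2 the difference was -3.69 (SE 1.2) and missed the threshold (adjusted p = 0.0501). Without healthy epithelial library 4, which had the highest mitochondrial share (83.9%) and the lowest epithelial markers of its group, it was -5.95 (adjusted p = 0.000633), and it also passed without tumor epithelial library 1, without tumor stromal library 3 and with limma-voom and DESeq2. The low fibroblast markers of the tumor stromal libraries, and the epithelial markers that these libraries carried, apply to each of these values.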

How the results depend on the processing

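Of 46 calls of the 10 genes over the 16 comparisons, none reversed, and 38 were kept whichever single library was left out. The 8 others are named in the report with the libraries that decide them. Leaving out 1 library gave 20 to 26 calls among tumor cell types (23 with all libraries), 4 to 7 in healthy colon (4), 5 to 8 for tumor against healthy colon (6), 5 to 7 for tumor against blood (5), 1 to 2 in blood of tumor-bearing against healthy mice (1), 4 to 5 in healthy blood (4) and 2 to 4 for the differences of responses (3). Calls were gained without healthy epithelial library 4 (Mmp9 and Mmp25 in healthy stroma, adjusted p = 0.00867 and 0.00293), without tumor monocyte library 3 (Mmp7 against stroma, adjusted p = 0.0192), without blood neutrophil library 3 of tumor-bearing mice (Mmp13 against healthy mice, -7.49, adjusted p = 0.013) and without tumor neutrophil library 2 (Mmp12 and Mmp19 in stroma over epithelium, adjusted p = 0.023 and 0.0263, Mmp12 and Mmp13 in neutrophils over epithelium, adjusted p = 0.0227 and 0.0362, and Mmp19 in the neutrophil minus monocyte difference, -4.23, adjusted p = 0.0143). Limma on log2(RPKM + 1) called 15 among tumor cell types, 3 for tumor against blood, 2 in healthy blood and 5 for the differences of responses, where DESeq2 and log2(RPKM + 0.1) also called 5. A pseudocount of 1 shrinks the differences of genes under 1 RPKM by construction. In 1 model of all 40 libraries tumor against blood had 8 calls and blood of tumor-bearing against healthy mice had 0, against 2 with no fold limit. The cause of the other shifts was not tested. Limma-voom lost 5 of the 46 calls, among them Mmp9 and Mmp25 in tumor stroma over epithelium (adjusted p = 0.367 for each).

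The replicate numbers of the labels did not pair the libraries, since correlations of deviations between libraries of the same number were above 0.1 for 1 of 24 pairs among tumor cell types, 5 of 24 in the stromal and epithelial fit, 0 of 24 in the neutrophil and monocyte fit, and, of 4 pairs each, for 2 in tumor against healthy stroma (highest 0.195), 2 in blood monocytes (0.0839 to 0.251), 1 in healthy colon, tumor against blood neutrophils, blood neutrophils and healthy blood, and 0 in the others, so that no fit had every pair above it. With the replicate number as a block, 20 calls passed among tumor cell types, 4 in healthy colon, 8 for tumor against healthy colon, 6 for tumor against blood, 1 in blood of tumor-bearing against healthy mice, 4 in healthy blood and 3 for the differences of responses. The block lost Mmp2 (adjusted p = 0.054), Mmp9 (adjusted p = 0.057) and Mmp25 (adjusted p = 0.2) in tumor stroma over epithelium and Mmp3 in the difference of responses (adjusted p = 0.0591). With the animal of the title as the block, 11 tumor calls were left, Mmp9 in stroma over epithelium, Mmp12 and Mmp19 in monocytes over epithelium, Mmp9, Mmp14 and Mmp25 in neutrophils against epithelium, Mmp9 and Mmp19 in monocytes against stroma, and Mmp9, Mmp14 and Mmp19 in neutrophils against monocytes. Of 9 animal names on several libraries, 3 had libraries on both sides of 1 RPKM of Xist.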
